A study of Mus musculus with 17 samples.

Results

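Whole-blood DNA methylation was compared between old and young C57BL/6 mice fed ad libitum (AL), over the autosomal CCCGGG sites of the genome. Sites with 100 or more reads in no fewer than 75% of the 12 AL mice were kept, which left 15209 of the 164896 autosomal sites listed and of the 173449 sites in all. The AL-young group held 5 mice aged 4 months, 2 females (AL-young 15 and 16) and 3 males (28, 29 and 30). The AL-old group held 7 mice, of which 5 were females aged 29 months (AL-old 08 and 09) or 30 months (10, 13 and 14) and 2 were males aged 33 months (25 and 27). All 12 came from a rodent colony for calorie restriction studies of the National Institute on Aging, and the labels name no transgene or treatment. The series holds 17 mice, and the remaining 5, on calorie restriction, were not compared here. Each mouse gave 1 library, so the tests measure the spread between animals, and age and sex were unevenly divided because the old males were older than the old females.

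CpG dinucleotides are methylated on cytosine across most of the mammalian genome, while CpG islands, the CpG-rich stretches at many gene starts, are mostly free of methylation. A methylated island promoter is usually a silent promoter, whereas methylation within gene bodies and between genes is the ordinary state of those regions. Blood is a mixture of granulocytes, lymphocytes and other cells, each with its own methylation pattern. In whole blood a change in the share of a cell type and a change within the cells cannot be told apart.

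Methylation was measured by digital restriction enzyme analysis of methylation (DREAM). In this assay SmaI first cuts unmethylated CCCGGG sites, XmaI then cuts the remaining methylated ones, and the bases left at the start of each read tell which enzyme cut. The methylation level of a site is the share of its reads that came from the second cut. Examples of the sites behind the results follow, with the CCCGGG in capitals and up to 100 bases of the mm9 plus strand around it, read from the genome. The first sites, all of them higher in old mice, show the CpG-rich sequence in which most gains lay, with the exception of the site in Runx1.
Trhde, chr10:114238488-114238587: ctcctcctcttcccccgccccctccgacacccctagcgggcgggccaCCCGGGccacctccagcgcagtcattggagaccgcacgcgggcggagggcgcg
Fam189a1, chr7:72301118-72301147: atgcgggaacggCCCGGGcactcgcgcagg
Ugt8a, chr3:125640815-125640914: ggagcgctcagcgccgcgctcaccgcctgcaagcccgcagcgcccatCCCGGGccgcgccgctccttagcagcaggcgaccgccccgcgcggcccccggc
Sox11, chr12:28027756-28027855: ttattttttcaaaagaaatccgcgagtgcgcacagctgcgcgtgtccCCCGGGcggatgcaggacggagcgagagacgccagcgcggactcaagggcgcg
Lin28b, chr10:45205633-45205732: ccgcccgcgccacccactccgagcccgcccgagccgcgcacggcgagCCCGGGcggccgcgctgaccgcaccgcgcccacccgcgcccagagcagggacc
Runx1, chr16:92644870-92644969: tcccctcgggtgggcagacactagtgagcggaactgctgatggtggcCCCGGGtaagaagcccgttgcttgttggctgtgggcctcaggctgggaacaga
The next sites were lower in old mice and have few CpG in the same length of sequence.
near Tnfrsf13c, chr15:82060548-82060647: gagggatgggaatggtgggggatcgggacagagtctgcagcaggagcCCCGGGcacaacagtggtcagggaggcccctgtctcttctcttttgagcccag
Zbtb32, chr7:31375135-31375234: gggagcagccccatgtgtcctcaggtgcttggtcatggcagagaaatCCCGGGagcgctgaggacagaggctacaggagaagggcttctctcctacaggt
Psme1, chr14:56199789-56199888: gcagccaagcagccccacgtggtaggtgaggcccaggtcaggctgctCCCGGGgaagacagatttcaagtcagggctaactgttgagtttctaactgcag
Nfix, chr8:87310431-87310530: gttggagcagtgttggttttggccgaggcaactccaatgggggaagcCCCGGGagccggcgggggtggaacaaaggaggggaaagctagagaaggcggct
Arid3a, chr10:79393826-79393925: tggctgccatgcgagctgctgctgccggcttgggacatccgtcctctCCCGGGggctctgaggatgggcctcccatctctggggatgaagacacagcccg
The 100 bases shown hold 12 CpG at Trhde, 17 at Ugt8a, 14 at Sox11 and 19 at Lin28b, against 4 at Runx1, 2 at the site near Tnfrsf13c, 2 at Zbtb32, 2 at Psme1, 5 at Nfix and 5 at Arid3a.

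The tables held 6.933 to 51.61 M reads in the AL-young mice and 6.408 to 14.91 M reads in the AL-old ones, and the median kept site had 447 reads per mouse. At 100 reads a level of 50% has a 95% Wilson interval of 40.4% to 59.6%, and 0 methylated reads allow a level of up to 3%, both for counting error only. Each mouse had 2 levels per site: a raw level from its reads and the adjusted level that the authors had corrected with spiked-in standards of known methylation. The 2 differed by a single factor per mouse on the odds of methylation. That factor lay between 0.872 and 1.13 in the AL-young mice and the AL-old males and between 1.4 and 3.96 in the 5 AL-old females, so it cannot be told apart from being an old female. The standards did not give 1 answer on which level to trust. Of the 14 with mean raw levels between 5% and 95%, 10 were closer between mice with a low and a high factor on adjusted levels and 4, those of Gfp and T353, on raw levels. In the 7 mice with a low factor and the 5 with a high factor, the standard Kan_1 read 33.4% and 11.1% raw and 33.2% and 20.2% adjusted, and Luc_1 read 26.8% and 13.6% raw and 26.6% and 24.4% adjusted, whereas Gfp_1 read 41.9% and 41.7% raw and 41.6% and 61.6% adjusted. Calls and context means are therefore given on both levels, and a site is called gained or lost without further note only where it passed on both. Levels of single sites, young-level bins, neighbouring sites, marker genes and the X chromosome are raw unless stated otherwise.

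Old blood had more methylation at CpG island sites that were almost unmethylated in young blood. It had less methylation at sites outside islands that were partly or highly methylated in young blood. On the reads as deposited, 495 sites (3.25% of those tested) were higher and 690 (4.54%) were lower in AL-old mice (edgeR quasi-likelihood test, Benjamini-Hochberg adjusted p under 0.05 and group means at least 2 percentage points apart). With the odds factor as an offset, 1005 sites (6.61%) were higher and 390 (2.56%) lower, so that 41.8% of the calls on raw reads and 72.0% of those with the offset were gains. Limma on adjusted levels called 877 higher (5.77%) and 307 lower (2.02%). The 495 gains and the 390 losses were called in both edgeR fits and are the gained and lost sites below. Gained sites went from a median of 0.762% in the young to 12.2% in the old, and 98 of them by 20 points or more. Lost sites went from a median of 86.5% to 35.4%, with 303 of them falling by 20 points or more. With a term for a high odds factor in the fit, 288 sites were higher and 1 was lower. All AL-old females and no other mouse had a high factor. The age difference in that fit therefore rested on the old males, AL-old 25 and AL-old 27, against the young mice. Leaving out AL-old 25 raised the count of lower sites from 690 to 1091, and leaving out AL-old 08 brought it to 448.

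**Figure D1:**
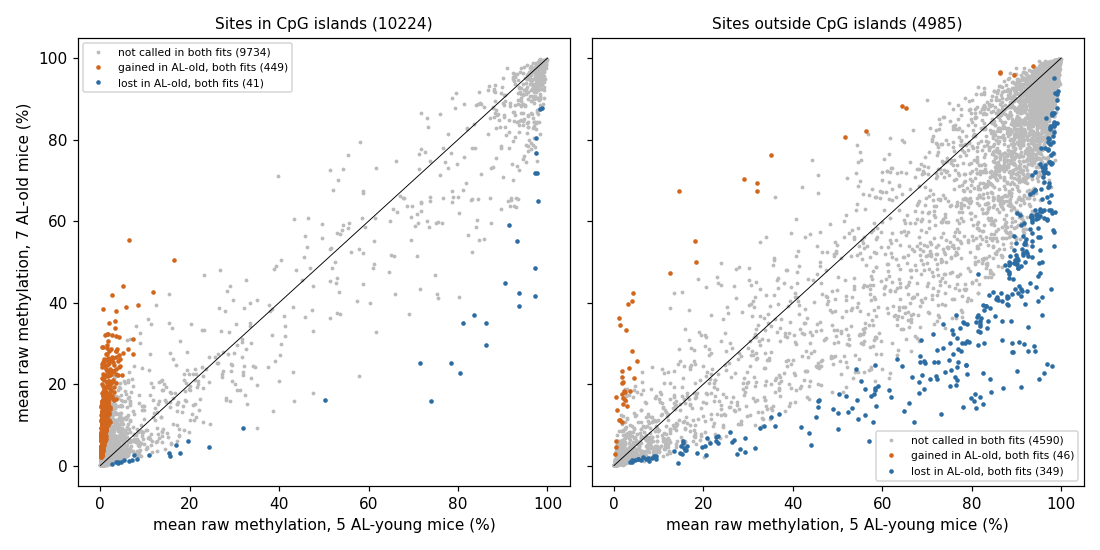
Mean raw methylation of each kept site (percent) in AL-old mice on the vertical axis against AL-young mice on the horizontal axis, for the 10224 sites in CpG islands (one panel) and the 4985 outside them (the other), with gained sites in orange, lost sites in blue and the rest in grey. Gained sites lie above the diagonal near the left edge of the island panel, and lost sites lie below it in the panel for sites outside islands, most of them at the right.

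CpG islands held 449 of the 495 gained sites (90.7%) and 41 of the 390 lost sites (10.5%), beside 67.2% of all sites tested. Promoters, from 1000 bases before to 500 after a transcription start, held 339 gained sites (68.5%) and 66 lost ones (16.9%), beside 53.2% of all sites. The gained sites belonged to 246 genes and the lost sites to 194, each site being assigned to 1 gene. Within 500 bases the median number of CpG was 51 around gained sites and 9 around lost sites, beside 33 around all sites tested.

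The share of gained sites was 4.41% among island promoter sites (327 of 7420), 3.72% in islands of gene bodies (74 of 1990) and 5.90% in intergenic islands (48 of 814). It was 1.28% in island shores, the 2000 bases on either side of an island (32 of 2491). In the open sequence beyond the shores, 0 of 130 promoter, 9 of 1240 gene body and 5 of 1124 intergenic sites were gained. Losses were more frequent outside islands. They took 0.202% of island promoter, 1.00% of island gene body and 0.737% of island intergenic sites, but 6.70% of shore, 10.8% of open promoter, 7.50% of open gene body and 6.67% of open intergenic sites.

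Averaged per mouse over all kept sites of a context, raw methylation was 10.4 points lower in AL-old mice in open gene bodies (71.2 ± 7.51%, SD, n = 7, against 81.7 ± 0.367%, n = 5; exact two-sided permutation test, adjusted p = 0.0354 over the 7 contexts). It was lower by 12.2 points in open promoters (adjusted p = 0.0354, exact permutation), by 11.8 points in open intergenic sequence (adjusted p = 0.0442, exact permutation) and by 8.12 points in shores (adjusted p = 0.0486, exact permutation). The island promoter mean was 2.26 ± 1.35% in the old mice and 1.42 ± 0.114% in the young, a difference of 0.838 points that did not pass on raw levels (adjusted p = 0.235, exact permutation). It was 0.359 points without AL-old 27, whose mean was 5.14% where the other old mice had 0.981% to 2.58%, and 1.05 points without AL-old 08, which passed (adjusted p = 0.0364, exact permutation). On adjusted levels it was 2.95 ± 1.12% against 1.44 ± 0.0864%, and that difference of 1.51 points passed (adjusted p = 0.0295, exact permutation). Islands in gene bodies and between genes did not pass on either level, with raw differences of -1.22 and -0.439 points and adjusted differences of 0.613 and 1.58 points.

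The mice differed in which sites reached 100 reads, so the means were also taken over the 11971 sites that had 100 reads in all 12 mice, a choice made after seeing the data. On adjusted levels all 7 contexts then differed between the ages. Island promoters, island gene bodies and intergenic islands were higher in AL-old mice by 1.5, 2.0 and 2.38 points (adjusted p = 0.0177, 0.0177 and 0.0341, exact permutation). Shores, open promoters, open gene bodies and open intergenic sites were lower by 2.30, 6.71, 4.55 and 5.02 points (adjusted p = 0.0177 for each, exact permutation). On raw levels the same 4 contexts outside islands were lower by 6.39, 10.4, 9.51 and 10.2 points (adjusted p = 0.0199 for each, exact permutation). The 3 island contexts did not pass on raw levels, at 0.863, 0.205 and 0.396 points.

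**Figure D2:**
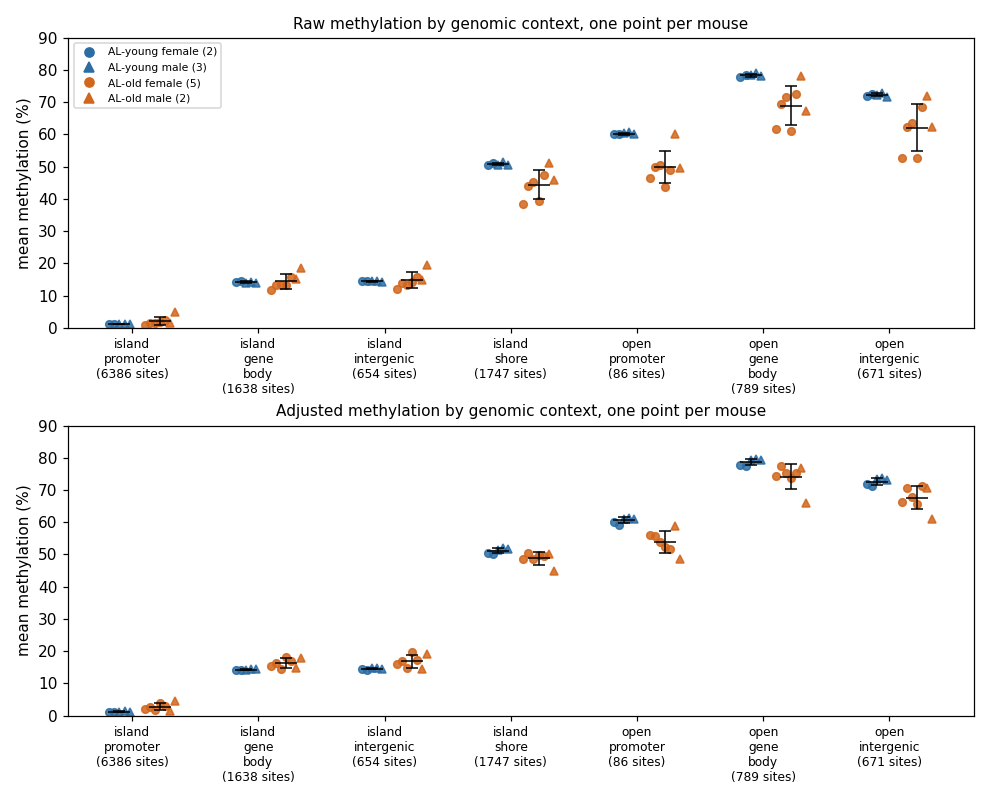
Mean methylation (percent) of each mouse in the 7 genomic contexts over sites with 100 reads in all 12 mice, raw in the upper panel and adjusted in the lower one, with 1 point per mouse (circles females, triangles males, blue AL-young, orange AL-old) and black bars for the group mean ± SD. The AL-young points lie close together in every context, at 77.8% to 78.9% raw in open gene bodies, where AL-old points run from 61.2% to 78.1%.

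Old mice differed from one another more than young mice did. The mean absolute difference between mice of a group, averaged over the sites of a context, was 14.4 points among AL-old and 2.20 points among AL-young mice in open gene bodies (p = 0.00126, exact permutation, the smallest value the 792 splits allow). It was 12.2 against 2.05 points in shores, 16.4 against 2.28 in open intergenic sequence and 1.92 against 0.334 in island promoters. The last had p = 0.0265 by exact permutation, the other contexts 0.00126, and after adjustment over the 7 contexts the values were 0.0265 and 0.00147. On adjusted levels all 7 contexts had p = 0.00126 by exact permutation. At the typical island promoter site the raw spread was not larger, with a median SD of 0.140 points in old and 0.149 in young mice. There 59.9% of the sites had the larger raw SD in old mice. On adjusted levels the median SD was 0.326 points in old and 0.150 in young mice, and 82.5% of the sites had the larger SD in old mice. The spread includes differences in the odds factor and in age and sex, whose part in it was not tested.

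AL-old 25, a male, was close to the young mice at the lost sites. Over the 293 lost sites with 100 reads in all mice, its mean raw level was 69.4%, inside the 69.1% to 70.8% of the 5 AL-young mice, while the other 6 AL-old mice had 11.8% to 35.7%. On adjusted levels AL-old 25 had 67.7% and the other 6 had 25.2% to 41.6%. At the lost sites the change was thus carried by 6 of the 7 old mice. Over the 414 gained sites with 100 reads in all mice, AL-old 27 had a mean raw level of 37.2% and was the most changed old mouse at 71.3% of them. AL-old 25 had 4.82% and AL-old 08 had 5.82%, near the 2.45% to 2.94% of the AL-young mice, and the other 4 old mice had 9.49% to 20.0%. On adjusted levels AL-old 13 had 36.2% and AL-old 27 had 35.4%, AL-old 25 had 4.37%, and the other 4 had 12.2% to 24.3%.

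The other old male, AL-old 27, had a low odds factor and many changed sites. A site was counted as outside the young range when a mouse was more than 10 points above or below all AL-young mice (for an AL-young mouse, all the other AL-young mice), among the 11971 sites read in every mouse. AL-old 27 had 1355 sites above and 1096 below on raw levels, and 1246 and 1162 on adjusted levels. AL-old 25 had 70 and 38 raw, and 34 and 83 adjusted. The AL-young mice had at most 6 above and 5 below on raw levels, and at most 5 and 22 on adjusted levels.

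The 5 old females had 53 to 782 sites above the range and 759 to 1482 below it on raw levels, and 403 to 1107 above and 480 to 784 below on adjusted levels. Islands held 45.3% to 76.5% of the sites above the range in an old mouse and 10.5% to 13.2% of the sites below it, on raw levels, beside 72.5% of all 11971 sites counted. On raw levels the share among sites above the range was thus lower than among all sites in 6 of the 7 old mice. It was higher in AL-old 27 alone, at 76.5%. On adjusted levels the share was 77.5% in AL-old 27, 73.5% of 34 sites in AL-old 25 and 48.6% to 66.0% in the old females. Adjusting changed how many sites an old female had on each side.

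**Figure D3:**
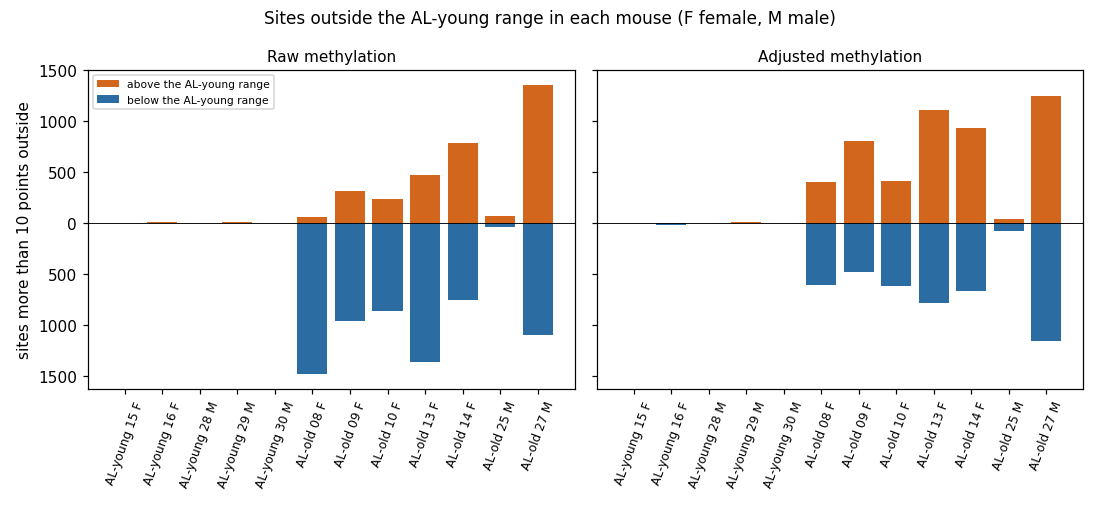
Number of sites per mouse more than 10 points above (upward bars) or below (downward bars) the range of the AL-young mice, among 11971 sites with 100 reads in all 12 mice, raw and adjusted. AL-old 27 has 1355 sites above and 1096 below on raw levels, AL-old 25 has 70 and 38, and the young mice have 6 or fewer on either side on that scale.

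Sites outside the young range were partly shared among old mice. Of 1892 sites above the young range in any old mouse on raw levels, 1112 were above it in a single mouse and 161 in 4 or more. Of 2154 sites below the range, 575 were below it in a single mouse, and 295, 278, 250 and 6 in 4, 5, 6 and all 7 mice. On adjusted levels 422 of 2210 sites above and 449 of 1772 sites below were shared by 4 or more mice. Every AL-old mouse lay above every AL-young mouse at 254 sites (2.12%) and below at 204 (1.7%) on raw levels, and at 541 (4.52%) and 181 (1.51%) on adjusted levels.

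The level in young blood went with the direction, which in part follows from the scale, since a site near 0% can hardly lose and a site near 100% can hardly gain. Of 9304 island sites under 5% in the young, 439 were gained (4.72%). Outside islands, 29 of 697 sites under 5% were gained (4.16%), so at that young level the share was similar in and outside islands. Of the 2321 sites outside islands at 90% or more in the young, 148 were lost, as were 66 of the 648 between 80% and 90% and 107 of the 1014 between 20% and 80%. Binned by adjusted young level, losses outside islands took 6.47% of sites at 90% or more and 9.84% from 80% to 90%. They took 10.7% from 20% to 80% and 7.47% from 5% to 20%, so the most methylated sites had the smallest of these shares.

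CpG density within islands also went with gain. Among island sites with fewer than 20 CpG in 500 bases, 0.543% were gained, followed by 2.01% from 20 to 30, 3.80% from 30 to 40, 3.59% from 40 to 50 and 6.46% at 50 or more. The young level differed too, with a median of 40.2% below 20 CpG and medians of 0.241% to 0.65% in the denser bins. By distance from the nearest gene start the share of gained island sites ranged from 3.68% (1000 to 2000 bases) to 5.02% (500 to 1000 bases), with 4.11% within 250 bases and 4.16% beyond 2000. Outside islands, losses took 8.59% of sites with fewer than 5 CpG in 500 bases, 8.65% from 5 to 10, 5.75% from 10 to 20 and 2.66% at 20 or more. The bin at 20 or more had a median young level of 1.56%, where little can be lost, beside 85.9% to 91.1% in the sparser bins. These shares are descriptions, since neighbouring sites share mice and sequence, and the part of the young level in them was not tested.

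Sites of the same island often changed in the same direction. Of the 3673 islands with 2 or more sites, 229 held a gained site and in 76 of them every site was gained, whereas 0 islands held both a gained and a lost site. Across 5701 pairs of neighbouring island sites, a median of 186 bases apart, the age difference of one site and the next had a Spearman rho of 0.560 and a Pearson r of 0.654, over sites that share libraries and are not independent. All 5 sites were gained in islands of Zfpm2, a cofactor of GATA factors, Nrg1, a growth factor of the neuregulin family, Ptprm, a receptor tyrosine phosphatase, and Agap1. All 4 sites were gained in islands of Rnf217, Lin28b, Epb4.1l3, Ptprg, Astn2, Cdh4, Bnc2 and Vldlr, among others.

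The sites named here had 100 reads in every mouse, passed both fits and had every AL-old mouse on 1 side of every AL-young mouse on both levels, which 187 gained and 76 lost sites did, and are the 12 with the largest difference in each direction. At Trhde, which encodes the enzyme that degrades thyrotropin-releasing hormone, a promoter island site (chr10:114238535, in an exon, 111 bases before the nearest start) had raw levels of 8.51%, 9.28%, 5.05%, 3.58% and 6.15% in the AL-young mice. The AL-old mice had 18.4% at the lowest, 54.6% at the median and 94.3% at the highest. The means were 6.52 ± 2.37% (SD, n = 5) and 55.3 ± 24.6% (SD, n = 7), with a log2 odds ratio of 4.32 ± 0.80 (SE) and an adjusted p of 0.000181 (edgeR). All the old mice were above all the young ones, but they covered most of the range of the assay.

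Rnf217, which encodes a ubiquitin ligase with a RING finger, had the highest odds ratio of the named gains at a promoter island site in its UTR (chr10:31329157). The young mice had 0.275% to 1.23% and the old mice 2.17% to 83.3% with a median of 26.2%, with a log2 odds ratio of 6.64 ± 1.04 (SE) and an adjusted p of 1.19e-05 by edgeR. The lowest old mouse was less than 1 point above the highest young mouse there, so the separation of the groups was narrow although the means, 0.655% and 38.3%, were far apart.

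Developmental regulators were among the other named gains. Sox11, a transcription factor of neural development, went from 5.84 ± 1.92% to 38.8 ± 22.6% at a promoter island site 231 bases before its start (chr12:28027803; edgeR, adjusted p = 0.00204). Its young levels were 7.43%, 8.01%, 5.95%, 3.67% and 4.16%, and its old levels ran from 14.8% over a median of 30.6% to 76.1%, without overlap. Lin28b, an RNA-binding protein that blocks let-7 microRNA maturation, went from 1.77 ± 0.809% to 32.3 ± 23.0% at a promoter island site (chr10:45205680; edgeR, adjusted p = 9.17e-05). There the young mice had 1.28%, 2.36%, 2.90%, 1.14% and 1.19%, and the old mice 7.39% at the lowest, 29.8% at the median and 71.8% at the highest. Ebf3, of the early B cell factor family, went from 3.23% to 33.7% in an intronic island, and Zfpm2 from 1.58% to 32.3% in its promoter island.

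Runx1, the transcription factor required to form blood stem cells, was gained in an intron far from the start (chr16:92644917, 50976 bases into the gene) in the shore of an island, not in a promoter. The AL-young mice had 5.36%, 4.46%, 4.12%, 3.82% and 3.81%, and the AL-old mice had 7.56% to 85.01% with a median of 44.6%. The odds ratio on the log2 scale was 3.97 ± 0.78 (SE), with an adjusted p of 0.000431 by edgeR, and the groups did not overlap. Its 100 bases, shown above, hold 4 CpG.

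The remaining named gains were Ugt8a, which makes the galactosylceramide of myelin (5.11% to 44.2%, island in an intron), Fam189a1 (2.60% to 41.8%, coding exon), Fam19a5 (1.96% to 35.1%), Chsy3, a chondroitin synthase (1.02% to 31.9%), and the ephrin receptor Ephb3 (11.8% to 42.7%). Ephb3 had the most even old group, from 28.7% to 48.9%, and also the weakest test (edgeR, adjusted p = 0.0122), which rose to at most 0.0555 without a single mouse.

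Sites in or near genes of immune cells were among the largest losses. The site 5807 bases from Tnfrsf13c, which encodes the BAFF receptor of B cells (chr15:82060595, between genes, in a shore), had 89.0%, 92.3%, 88.7%, 95.3% and 90.1% in the AL-young mice. The AL-old mice had 1.71% at the lowest, 7.91% at the median and 87.7% at the highest, in AL-old 25. The odds ratio on the log2 scale was -6.80 ± 0.93 (SE), with an adjusted p of 1.78e-06 by edgeR, and 6 of the 7 old mice were at 19.2% or lower.

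Zbtb32, a zinc finger repressor of lymphocytes, had the same pattern in a coding exon (chr7:31375182). Its AL-young levels were 85.2%, 82.6%, 77.5%, 83.4% and 84.2%, and its AL-old levels were 0.717% to 11.5% in 6 mice and 77.1% in AL-old 25. On the log2 scale the odds ratio was -6.52 ± 0.93 (SE), with an adjusted p of 2.83e-06 by edgeR. The old and young groups did not overlap, but AL-old 25 was less than 1 point below the lowest young mouse.

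Psme1, a subunit of the proteasome activator induced by interferon, went from 90.1 ± 1.33% to 23.2 ± 31.6% at an exonic shore site 253 bases from its start (chr14:56199836; edgeR, adjusted p = 1.06e-05). The young mice had 89.7%, 89.6%, 92.4%, 89.6% and 89.2%, and the old mice 1.91% at the lowest, 8.31% at the median and 88.4% at the highest, again in AL-old 25. Arid3a, a transcription factor of B cells, went from 97.8 ± 0.791% to 43.4 ± 35.1% in a coding exon (chr10:79393873; edgeR, adjusted p = 2.42e-05). Its old levels spread from 2.34% over a median of 30.5% to 96.8%, just under the lowest young level of 96.9%. Akna, a transcription factor of lymphocytes, went from 86.2% to 29.7% in an intronic island. These sites lay outside promoter islands.

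The remaining named losses were the transcription factor Nfix (80.4% to 22.6%), the receptor kinase Grk6 (89.3% to 27.8%), the kinase Mknk1 (89.1% to 30.0%), the phosphoinositide 3-kinase subunit Pik3r2 (97.2% to 41.5%, in an island promoter), Adamts14 (67.1% to 10.6%), Emid2 (72.0% to 21.9%) and a site near 9230107M04Rik (76.7% to 24.1%). In the 7 mice with a low odds factor, the 5 young ones and AL-old 25 and 27, the 24 named sites kept their direction but none passed (edgeR, adjusted p from 0.0939 to 0.197). In that fit of 7 mice 0 sites were called in all, with 2529 higher and 740 lower at an unadjusted p under 0.05. A fit of all 12 mice with a term for a high factor took the AL-old females out of the age difference, since they alone had a high factor. That difference again rested on AL-old 25 and 27 against the young mice, so the fit cannot decide about the old females. None of the 12 losses passed in it (edgeR, adjusted p from 0.0779 to 0.457). Of the 12 gains 5 did, at Fam189a1, Rnf217, Fam19a5, Chsy3 and Lin28b. The gains at Trhde, Ugt8a, Runx1, Sox11, Ephb3, Zfpm2 and Ebf3 did not pass in that fit, with an adjusted p of up to 0.218.

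**Figure D4:**
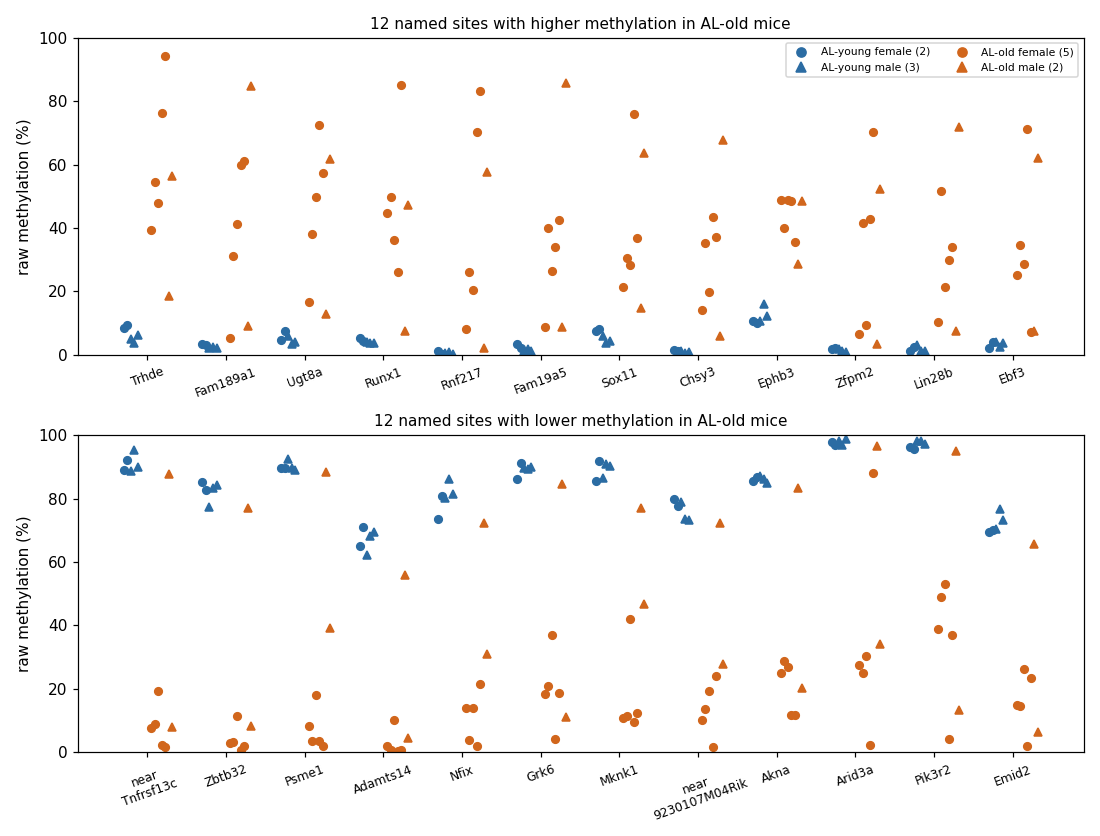
Raw methylation (percent, vertical axis) of each mouse at the 12 gained sites (upper panel) and 12 lost sites (lower panel) named in the text, with 1 point per mouse, circles for females, triangles for males, blue for AL-young and orange for AL-old. At most of the lost sites a single old mouse, AL-old 25, lies near the young points, at 77.1% for Zbtb32 where the other old mice have 0.717% to 11.5%. At Arid3a AL-old 14 is also high, at 88.1%.

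Gene lists were read against the sites around them: 3.25% of all sites and 4.39% of island sites were gained, and 2.56% of all sites and 7.001% of sites outside islands were lost. Homeobox, paired box and T-box genes outside the Hox clusters, regulators of embryonic patterning, had 19 gained and 2 lost of 299 sites, in Tbx18, Tlx3, Lhx8, Irx1, Irx3, Irx5, Lmx1a, Satb1, Evx2 and Barhl2 for the gains and Prrx2 for the losses. The Tbx18 site went from 2.07% to 25.8%. In the Hox clusters 2 of 28 sites were gained, in Hoxd1 and Hoxd11, and 0 were lost. Their median difference was 0.749 points raw, beside -0.0168 over all sites.

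Of 140 sites of Fox, Sox and Gata factors 9 were gained, in Sox11, Foxa1, Foxd1, Foxl2 and Sox9, and 2 were lost. Wnt pathway ligands, receptors and antagonists had 7 gained and 0 lost of 73 sites, all 7 in Fzd10, a Wnt receptor, and Axin2, an inhibitor of the pathway. Fzd10 went from 1.83% to 25.2% at its listed site. BMP, TGF-beta, FGF and hedgehog genes had 6 gained and 1 lost of 134 sites, with gains in Bmp2, Bmp3, Inhbb and Gli2. That gained share was 4.48%, or 5.83% of the 103 island sites of the list. It was near the 3.25% of all sites and 4.39% of all island sites. Cadherins and protocadherins, which join cells to each other, had 6 gained and 0 lost of 59 sites, in Cdh2, Cdh4 and Pcdh15.

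The list of receptors for glutamate, GABA and neuropeptides had 5 gained and 1 lost of 78 sites, the gains in Trhde, Ntsr2, Gria4 and Htr1b. Its members Trhde, the enzyme described above, and Htr1b, a serotonin receptor, do not belong to those receptor classes. Voltage-gated channels had 2 gained and 3 lost of 125 sites. Tumour suppressors known to be methylated in cancer had 8 gained and 3 lost of 102 sites, with gains in Epb4.1l3, Hic1, Tmeff2 and Bmp3, among others, and losses in Trp73 and Mgmt. Imprinted genes had 2 gained of 47 (4.26%, beside 3.25% of all sites). Ribosomal protein genes, active in every cell, had 0 gained and 1 lost of 60 sites. DNA methylation and chromatin regulators had 7 gained (2.73%) and 2 lost of 256.

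Transcription factors of the blood lineages had 8 gained and 3 lost of 149 sites. The gains lay in Runx1, Runx2, Bcl11b and Nfatc2, and the losses in Zbtb32 and Cebpb. Immune receptors, cytokines and signalling genes had 3 gained and 11 lost of 139 sites, the losses in Psme1, Tapbp, Csf1, Tnfsf8, Itgam, Il10ra and Fes. Their 46 sites outside islands held 10 of these losses (21.7%, beside 7.001% of all sites outside islands). The median difference over the immune list was -0.0481 points raw and 0.0757 adjusted, and 93 of its sites lay in islands.

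**Figure D5:**
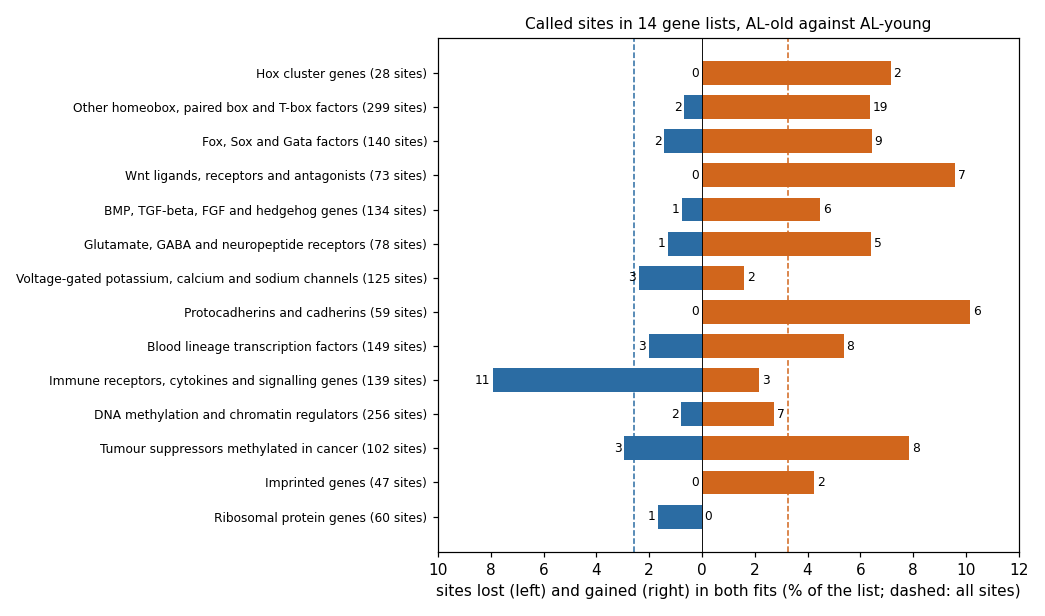
Percent of each gene list's sites that were lost (bars to the left) or gained (bars to the right) in AL-old mice, called in both edgeR fits, with the number of sites at each bar and dashed lines for all sites tested. Of the immune gene sites 7.91% were lost, and of the homeobox, paired box and T-box gene sites 6.35% were gained.

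Markers of blood cell types were read for their methylation. Few had a kept site: 1 gene of B cells, 3 of T cells, 1 of NK cells, 4 of granulocytes and monocytes, 1 of erythroid cells and 0 of platelets. T cell markers had 4 gained of 10 sites, all 4 in the promoter island of Bcl11b, a T cell factor also counted among the blood lineage factors, which went from 0.476% to 15.0% at its listed site. Itgam, of granulocytes and monocytes, had 1 lost site of the 9 sites in that list, from 91.5% to 51.7%. The Ebf1, Tbx21 and Klf1 sites of B, NK and erythroid cells did not pass. The mean raw level over the T cell list was 24.3% to 28.04% in AL-young mice and 9.13% to 43.0% in AL-old mice, and over the granulocyte and monocyte list 51.7% to 59.9% and 27.1% to 60.1%. The part of cell composition in the results was not tested.

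Whether the change with age differed between the sexes was tested with the product of age group and sex. On the reads as deposited 0 sites passed (edgeR, smallest adjusted p 0.136), with 1287 at an unadjusted p under 0.05. The old male group of 2 held the mouse nearest to the young ones and the mouse with the most sites above the range, and without AL-old 25 the count was 131 and without AL-old 27 it was 3. With the offset 1 site passed, in an intron of Lars2. In the females alone 34 sites were higher and 144 lower in AL-old mice, and in the males alone 0 sites passed, with 1817 higher and 191 lower at an unadjusted p under 0.05.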

How the data were processed

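Whole-blood DNA of 12 AL mice was analysed from 1 table per mouse. The deposited tables held, per CCCGGG site, counts of methylated and unmethylated reads and, beside them, the percent methylation that the authors had adjusted with spiked-in standards. The submitters' processing notes name Bowtie2 and SAMtools with mm9 and mm10, with site names in mm9. Raw methylation was computed as the percent of methylated reads after adding 0.5 to the methylated and to the unmethylated reads.

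Sites were tested with edgeR 4.0.16 (a term per mouse and an age contrast, 1 common dispersion, glmQLFTest), again with the odds factor as offset, and with limma 3.58.1 on log2 odds of adjusted methylation. Differences of mean methylation by context were tested by exact permutation over 792 splits. Calls needed an adjusted p under 0.05 and means at least 2 points apart. Islands were found in the mm9 sequence (at least 200 bases, GC of at least 50%, observed over expected CpG of at least 0.6). Genes were those of the GENCODE annotation of mm9, without 2 transcripts longer than 2.5 Mb. On 4000 simulated sites with 200 changed, edgeR recovered 50 with 2 false calls and limma 91 with 5 false calls. The simulated mice had the same spread in both groups and no odds factor. These counts therefore do not cover the unequal spread and the odds factors of the real mice.

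Named sites had 100 reads in all mice, were called in both edgeR fits and had every AL-old mouse on 1 side of the AL-young range on both levels. The first 12 per direction by the smaller of the raw and adjusted differences were taken, at most 1 per gene or 10 kb, and for each list also its called site with the largest raw difference per direction or, with none called, its member site with the largest. The members and gene lists were chosen with earlier results of these data known. Alternatives were other depth minimums, filters, fits and subsets of mice, and leaving out each mouse.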

Additional observations from a re-analysis of the deposited data

Results flagged for a closer look

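Of 76 groups of 5 or 7 mice examined, 12 held a mouse far from the rest by Dixon's criterion, where chance gives about 1 in 20. AL-old 25 was that mouse in 9 of them, with raw methylation of 87.69% near Tnfrsf13c (the other AL-old mice 1.71% to 19.2%), 77.09% at Zbtb32, 88.35% at Psme1, 55.78% at Adamts14, 72.25% at Nfix, 84.76% at Grk6, 72.37% near 9230107M04Rik, 83.22% at Akna and 65.63% at Emid2. These sites were named because every old mouse was below every young one, so the repeats share their choice.

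AL-old 27 had a raw mean of 5.137% over island promoter sites, where the other old mice had 0.981% to 2.58%. AL-young 29 had an adjusted mean of 18.63% over island gene body sites (other young mice 18.0% to 18.2%), and AL-young 28 had 92.44% at Psme1 (89.2% to 89.7%). At the Lars2 shore site the product of age group and sex had a log2 odds ratio of -7.784 with the offset (edgeR, adjusted p = 0.0266): AL-old 27 had 26.9% and the other mice 86.6% to 99.6%.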

How the results depend on the processing

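No paired analysis was possible because the mouse numbers are not shared between the groups. The counts of higher and lower sites, 495 and 690 on reads as deposited, became 1005 and 390 with the odds factor as offset and 877 and 307 by limma. The counts were 288 and 1 with a term for a high factor, which left only the old males to carry the age difference. They were 34 and 144 in females alone and 117 and 154 at 500 reads. They became 0 and 0 in males alone, in mice with a factor under 1.3 and in exact rank-sum tests on raw and adjusted levels (2537 and 3727 sites at an unadjusted p under 0.05, smallest adjusted p 0.0839 and 0.0532 over the sites). Limma with mouse weights gave 1291 higher, a 10-point minimum 277 higher, a sex covariate 377 lower and only mice with a factor under 3, chosen after seeing the data, 312 lower. Leaving out 1 mouse gave 343 to 610 higher and 448 (without AL-old 08) to 1091 (without AL-old 25) lower, and 0 to 131 sites for the product of age and sex. That count was 1 with the offset.

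Context differences, in the order island promoter, island gene body, island intergenic, shore, open promoter, open gene body and open intergenic, ran over leaving out 1 mouse from 0.359 (without AL-old 27) to 1.05 (without AL-old 08), -2.06 to -0.275, -1.47 to 0.459, -9.57 to -6.34, -14.2 to -10.7, -12.1 to -8.75 and -13.7 to -9.59 points. Island gene body and intergenic differences turned positive on adjusted levels (0.613 and 1.58) and with strict islands (0.492 and 1.05). They were also positive as medians over sites (0.285 and 0.343) and at sites read in all 12 mice (0.205 and 0.396), and never passed in these settings. In mice with a factor under 1.3 (2.62 and 3.43) and in males (2.71 and 3.58) they were positive without passing, with too few mice to decide. With 1 mouse left out, a context outside islands that had passed in all 12 mice no longer passed in 23 of the tests. The island promoter difference passed on adjusted levels (1.51). Shore, open promoter, open gene body and open intergenic differences did not pass at 500 reads (-9.37, -17.9, -15.4 and -14.8) or as medians (-25.8, -24.1, -7.77 and -11.5). The shore difference did not pass with strict islands (-3.85). The same differences kept their sign, without passing, with a factor under 1.3 (-2.33, -5.92, -5.60 and -5.68), in females (-10.4, -14.4, -12.1 and -14.1) and in males (-2.33, -6.07, -5.74 and -5.77). These subsets cannot decide whether a context differs. The males give too few splits for any exact permutation p under 0.05. In females and in mice with a factor under 1.3, a context could pass only if every context had the smallest p the splits allow. The island promoter spread difference ran from 0.874 to 1.75 points over leaving out 1 mouse. Over all contexts, with 1 mouse left out, the spread difference no longer passed in 5 tests and still passed in 79. Named and list sites kept their direction, apart from Tbx21 (log2 odds ratio -0.45, and 0.24, 0.78, 0.78, 1.05 and 0.26 in the fits with offset, high-factor term, low factors, males and limma) and Klf1 (0.26 by limma). For the named sites the naming rule fixed the direction in advance, so keeping it is no test of them. The causes were not tested.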

Other observations

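The X chromosome was outside the comparison. One X is silenced in each female cell, with methylated island promoters. Over 88 X-linked island promoter sites the mean raw level was 33.5 ± 1.63% in the 2 AL-young females and 27.3 ± 5.86% in the 5 AL-old females (SD), and 1.94 ± 0.186% in the 3 AL-young males. The old males had 2.87% (AL-old 25) and 10.1% (AL-old 27). Over 37 X-linked sites outside islands the levels were 76.9% in young and 66.3% in old females, and 70.5% in young and 66.5% and 69.9% in old males. Adjusted levels were not taken for the X chromosome. The old females ran from 20.4% (AL-old 08, odds factor 3.19) to 35.7% (AL-old 14, odds factor 1.40) at the island promoter sites. Their difference from the young females cannot be told apart from the odds factor.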
